A study of Homo sapiens with 10 samples.

Results

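The transcripts of 10 genes of differentiating neurons were followed across WT and ZNF274 KO cells of 2 human types. The genes are MAP2, MAPT, DCX, STMN2 and TUBB3, which encode microtubule proteins, GAP43 and NCAM1, which act at the growth cone and in adhesion, and ELAVL2, ELAVL3 and ELAVL4, which encode the neuronal ELAVL RNA-binding proteins. They were chosen by name, with earlier results of these data known, and all 10 are among the 19665 genes listed in both count tables of the series and the 24050 listed in either. RNA-seq was performed on WT and ZNF274 KO HEK293T cells (3 libraries each), a line derived from human embryonic kidney, and on WT and ZNF274 KO neural progenitor cells (NPCs, 2 libraries each). By the study's methods, ZNF274 was deleted with CRISPR-Cas9 and a pair of guide RNAs, and KO lines were grown from single sorted HEK293T cells or from single picked stem cell colonies. NPCs were derived from H1 human embryonic stem cells through embryoid bodies and were held in a medium that does not promote differentiation. The labels give genotype and cell type and no treatment or time point, and they do not say which clone or parental line a library came from. P values therefore measure the spread between these libraries.

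In a neuron, the dendrites and axon are built on bundles of microtubules, which are bound and spaced by MAP2 and by tau, the product of MAPT. Doublecortin (DCX) binds microtubules of migrating immature neurons, stathmin-2 (STMN2) regulates their assembly in growing axons, and TUBB3 is the beta-tubulin isotype most used to mark neurons. GAP43 is a membrane protein of the growth cone, and NCAM1 is an adhesion molecule of neural and other cells. The ELAVL proteins bind AU-rich stretches of mRNA, with ELAVL1 present in most cells and ELAVL2, ELAVL3 and ELAVL4 largely in neurons. ZNF274 is a zinc finger protein that binds DNA and recruits a silencing complex which deposits H3K9me3, and the comparisons ask how these neuronal genes stand in cells with and without it.

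The libraries held 18621266 to 32285876 counts on genes. ZNF274 had 423 to 496 counts in each WT library and 0 in each of the 5 KO libraries, so the genotype labels hold in every library. The NPC label was set against 7 neural progenitor markers. WT NPCs expressed all 7 above the floor of 3 counts per library, though HES5 only just, with 6 and 4 counts. KO NPCs had 0 counts of HES5, which did not pass the test (adjusted P = 0.0824), and 1 and 2 counts of SOX1, against 154 and 989 in WT. In HEK293T cells SOX1 and FABP7 stood at or below the floor, and the other markers did not. The 7 markers summed to 126 to 223 CPM in WT HEK293T cells and 2837 to 3851 CPM in WT NPCs. Between these groups, 5 of the 7 were called higher in NPCs (FABP7, SOX1, NES, SOX2 and PAX6), beside 25.1% of all genes tested. HES5 and SLC1A3 were not called.

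Levels are given as CPM, counts scaled to a common library size by TMM over all 10 libraries. Calls required a fold change (FC) above 2 and an adjusted P value below 0.05, by the quasi-likelihood test of edgeR, adjusted over all genes tested after Benjamini and Hochberg. Of the 20577 genes tested in NPCs, 8.36% were called lower and 8.45% higher in KO. These shares depend on the KO libraries, since the 1721 lower and 1738 higher calls became 943 and 1141 without S1, and the lower calls 1097 without S2. Of the 10 neuronal genes, 5 were lower (DCX, GAP43, MAP2, ELAVL3 and ELAVL2) and 1 was higher (ELAVL4). The median log2 FC of the 10 was -0.63, beside -0.022 over all genes tested. In HEK293T cells 0.0105% of 19018 genes were called lower and 0.478% higher (91 genes, or 42 without S16, 56 without S15 and 59 without S17), and none of the 7 neuronal genes that passed the count filter was called. Of these, 1 had an unadjusted P value under 0.05 (NCAM1), and DESeq2 and voom also called 0 of the 7. The 2 genes called lower over the whole table became 18 without S20, 5 without S18 and 1 without S15, and DESeq2 called 11 lower and 153 higher.

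The promoters of 6 of the 10 genes were found by symbol in the RefSeq table of GRCh38.p14, and each matched hg19 once. For 3 genes whose mRNA was lower in KO NPCs, the stretch upstream of the listed start is shown as far as it lies outside every annotated exon. The sequences are read on the strand of the gene. Capitals mark the letters CCAAT or their reverse complement ATTGG and, in GAP43, the longest run of A and G.
GAP43 promoter (chr3:115342107-115342356, + strand): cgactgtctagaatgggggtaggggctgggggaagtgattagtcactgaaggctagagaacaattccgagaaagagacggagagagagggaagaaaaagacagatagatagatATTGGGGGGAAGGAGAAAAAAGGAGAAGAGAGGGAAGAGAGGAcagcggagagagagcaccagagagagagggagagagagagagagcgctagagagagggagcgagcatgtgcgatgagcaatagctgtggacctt
ELAVL2 promoter (chr9:23826336-23826488, - strand): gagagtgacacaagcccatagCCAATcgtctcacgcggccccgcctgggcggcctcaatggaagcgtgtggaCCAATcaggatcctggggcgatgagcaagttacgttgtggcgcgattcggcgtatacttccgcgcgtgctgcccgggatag
MAP2 promoter (chr2:210525970-210526188, + strand): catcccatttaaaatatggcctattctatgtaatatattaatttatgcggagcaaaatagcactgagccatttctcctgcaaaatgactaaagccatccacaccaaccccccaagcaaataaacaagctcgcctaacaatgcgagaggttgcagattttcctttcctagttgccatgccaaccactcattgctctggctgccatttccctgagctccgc

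The GAP43 promoter holds a run of 40 purines, and 0.15% of the 27305 promoters in the table hold a run at least as long. On either strand, CCAAT occurred 2 times in the ELAVL2 window and 1 time in that of GAP43, where its reverse complement overlaps the purine run, and 33.0% of all promoters hold it. The E-box CAGCTG occurred in the ELAVL2 window alone of the 6 (13.8% of all promoters), CAGATG in none (12.2%) and TATAAA in those of ELAVL2 and DCX (11.1%). The ELAVL2 matches to CAGCTG and TATAAA and the DCX match lie in the window but outside the stretches printed. The MAP2 window has none of these 4 motifs, and neither do those of TUBB3 and ELAVL4. The MAP2 start used lies inside the gene as annotated, and starts further upstream were not analysed.

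MAP2 was the most abundant of the 10 genes by counts in NPCs and was 7.06-fold lower in KO. The gene lies on chr2:210288771-210598871 (hg19). Its level was 996 and 1091 CPM in WT NPCs S3 and S5 and 167 and 131 CPM in KO NPCs S1 and S2. Both KO libraries lie below both WT libraries, and the 2 libraries of each genotype were within 1.27-fold of each other. The log2 FC was -2.82 (SE 0.149, adjusted P = 6.08e-05). MAP2 provided 70.2 and 80.8% of the counts of the 10 genes in WT NPCs and 48.2 and 46.8% in KO NPCs.

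In HEK293T cells MAP2 was near absent. Its counts were 10, 12 and 4 in WT (S15, S16, S17) and 48, 7 and 6 in KO (S18, S19, S20). The KO and WT ranges overlap, and S18 alone stands above. The log2 FC was 1.47 (SE 0.865, adjusted P = 0.777) and turned to -0.42 without S18. Between the WT groups, MAP2 was higher in NPCs by a log2 FC of 11.78 (SE 0.240, adjusted P = 8.87e-09).

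MAPT had the opposite distribution, with more transcripts in HEK293T cells. It lies on chr17:43971893-44105700. The WT HEK293T libraries had 21.7, 14.3 and 17.3 CPM, the KO HEK293T libraries 18.1, 16.2 and 22.8, the WT NPC libraries 4.28 and 2.51, and the KO NPC libraries 5.58 and 4.27. All 6 HEK293T libraries lie above all 4 NPC libraries, and the genotypes overlap in each cell type. WT NPCs were lower than WT HEK293T cells by a log2 FC of -2.38 (SE 0.314, adjusted P = 0.000138), the only one of the 10 genes called in that direction. The KO effect was 0.52 in NPCs (95% interval -0.34 to 1.37, adjusted P = 0.329; 0.95 without S3 and 0.18 without S5) and 0.10 in HEK293T cells (-0.36 to 0.56, adjusted P = 0.940).

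DCX was lower in KO NPCs by 12.8-fold. It lies on chrX:110537007-110655657. Its counts were 530 and 339 in WT NPCs S3 and S5 and 50 and 19 in KO NPCs S1 and S2, or 25.2 and 17.4 CPM against 2.49 and 0.872 CPM. The groups do not overlap, and the KO libraries differ from each other by 2.86-fold. The log2 FC was -3.68 (SE 0.463, adjusted P = 0.00159). In HEK293T cells DCX had 0 to 2 counts in WT and 0 in each KO library, so the gene was not tested there and no KO effect was detectable at this depth. Against the highest floor of the WT HEK293T libraries, WT NPCs were at least 206-fold higher.

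STMN2 and TUBB3 were present in NPCs and were called in neither direction upon ZNF274 KO. STMN2 (chr8:80523352-80578393) had 15.1 and 18.1 CPM in WT NPCs and 26.0 and 15.9 CPM in KO NPCs, and the groups overlap. Its log2 FC was 0.32 (95% interval -0.29 to 0.94, adjusted P = 0.399) and -0.08 without S1. In HEK293T cells STMN2 had 0 to 6 counts, with 1 library of each genotype above the floor, and WT NPCs exceeded WT HEK293T cells by a log2 FC of 7.63 (SE 0.412, adjusted P = 4.94e-07). TUBB3 (chr16:89987800-90005169) had 5.04 and 8.26 CPM in WT NPCs and 4.78 and 8.13 CPM in KO NPCs, so each genotype held a lower and a higher library. Its log2 FC was -0.06 (95% interval -0.92 to 0.80, adjusted P = 0.928) and lay between -0.49 and 0.34 with 1 library left out.

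TUBB3 counts in HEK293T cells were 34, 6 and 6 in WT and 9, 8 and 14 in KO (log2 FC -0.42, SE 0.713, adjusted P = 0.923). WT NPCs were higher than WT HEK293T cells by a log2 FC of 3.67 (SE 0.645, adjusted P = 0.000862). The TUBB3 values carry a limit of counting. In the annotation used here, 66.5% of the TUBB3 coding bases are also exons of a read-through gene on the same strand, which neither count table lists, and how the authors' counting treated such reads was not tested. TUBB3 levels could therefore be too low. The same holds for 23.3% of the coding bases of ELAVL3. None of the coding bases of the other 8 genes is shared on the same strand.

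**Figure D1:**
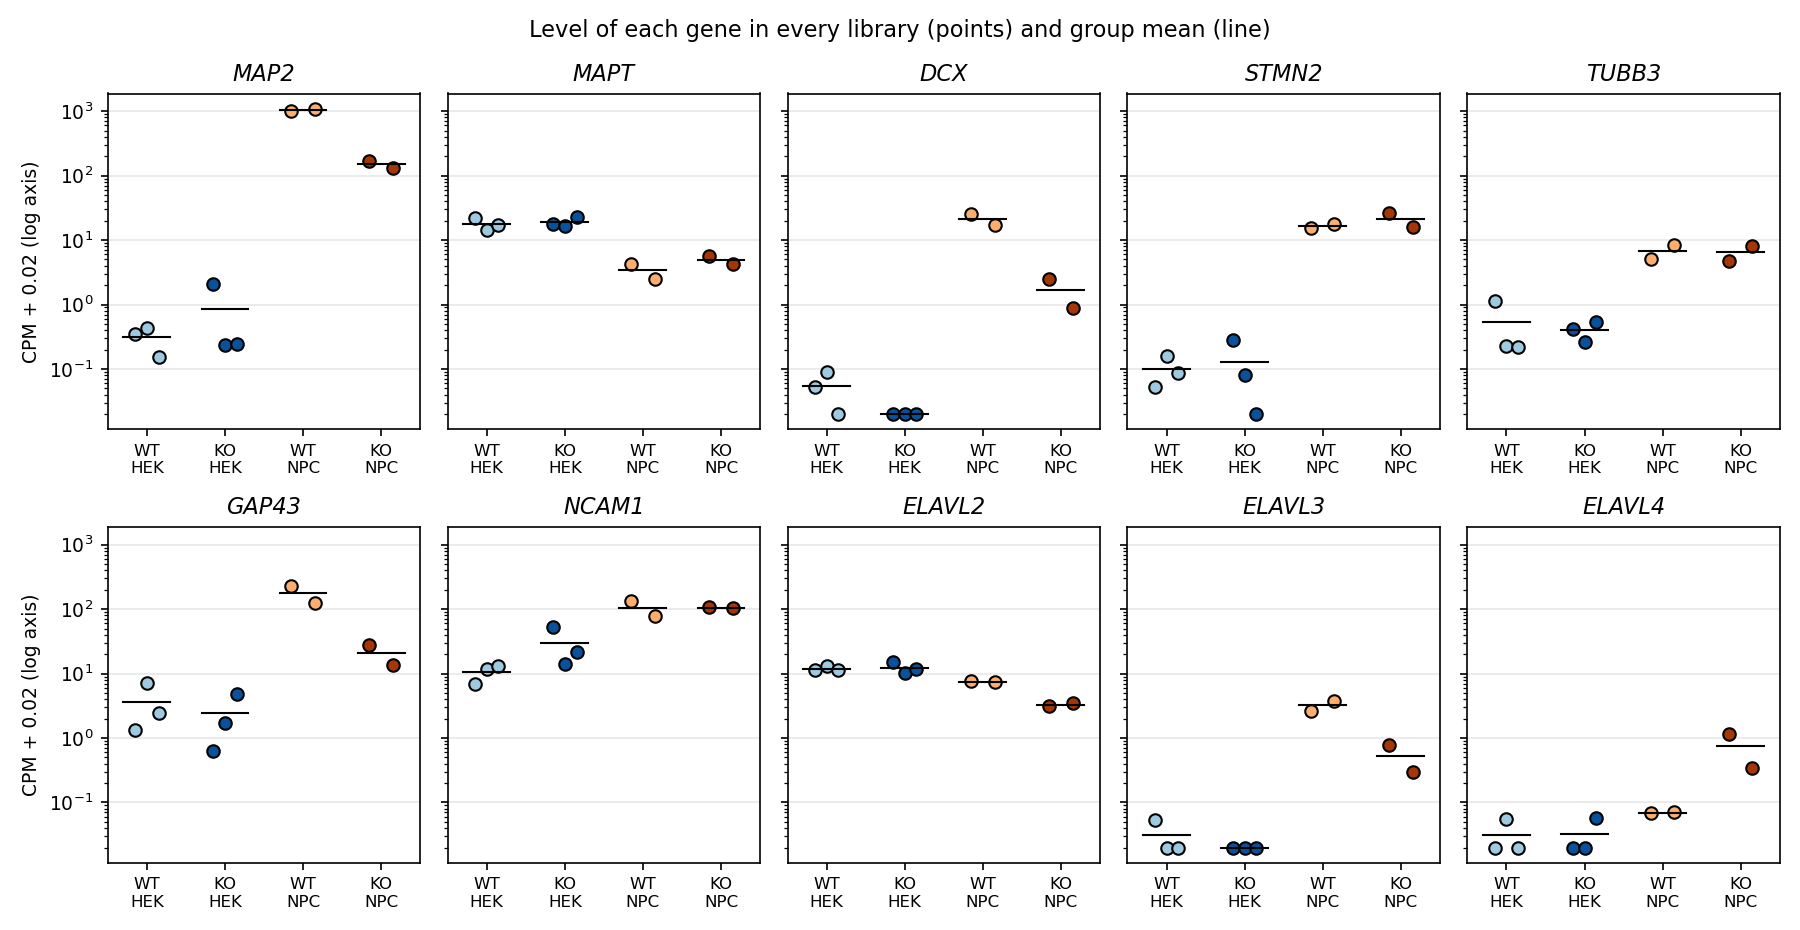
Level of each gene in CPM plus an offset of 0.02 (y axis, logarithmic) in the 10 libraries, with 1 panel per gene, 1 point per library and a line at the mean of each group. MAP2, DCX, GAP43, ELAVL2 and ELAVL3 sit lower in both KO NPC libraries than in both WT NPC libraries, ELAVL4 sits higher, and MAPT and ELAVL2 are the genes with all HEK293T libraries above all NPC libraries.

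GAP43 was lower in KO NPCs by 8.61-fold, with wide spread in every group. It lies on chr3:115342357-115440337. WT NPCs had 232 and 123 CPM and KO NPCs 28.2 and 13.6 CPM, so that the highest KO library stands below the lowest WT library. The log2 FC was -3.11 (SE 0.409, adjusted P = 0.00189). In HEK293T cells GAP43 stood at 1.33, 7.01 and 2.47 CPM in WT (S15, S16, S17) and at 0.608, 1.68 and 4.88 CPM in KO (S18, S19, S20). Libraries of a single genotype thus differed by 5.27-fold (WT) and 8.03-fold (KO), and the groups overlap. The log2 FC there was -0.58 (SE 0.693, adjusted P = 0.899) and became 0.34 without S16. WT NPCs exceeded WT HEK293T cells by a log2 FC of 5.64 (SE 0.540, adjusted P = 1.77e-05).

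NCAM1 did not pass the test in either cell type. It lies on chr11:112831997-113149158. WT NPCs had 132 and 79.4 CPM and KO NPCs 108 and 103 CPM, both KO libraries falling between the WT libraries, and the log2 FC was -0.02 (95% interval -0.54 to 0.50, adjusted P = 0.964). It was 0.39 without S3 and -0.35 without S5. In HEK293T cells NCAM1 stood at 6.91, 11.7 and 13.1 CPM in WT and at 52.0, 14.2 and 21.7 CPM in KO (S18, S19, S20). Every KO library lies above every WT library. The log2 FC was 1.47 (SE 0.418) at an unadjusted P value of 0.00487, but the adjusted P value was 0.350 (0.0806 to 0.73 over the alternatives), and the log2 FC was 0.76 without S18 (adjusted P = 0.571). NCAM1 was higher in WT NPCs than in WT HEK293T cells by a log2 FC of 3.32 (SE 0.283, adjusted P = 8.27e-06). Long non-coding RNA genes on the opposite strand share 7.89% of its exon bases.

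Of the 3 neuronal ELAVL genes, 2 were called lower in KO NPCs (ELAVL3 and ELAVL2). ELAVL4 was called higher, but from WT libraries at the floor, and that call was lost in several alternatives. ELAVL2 (chr9:23690102-23826335) had 7.61 and 7.39 CPM in WT NPCs and 3.09 and 3.49 CPM in KO NPCs, and the groups do not overlap. Its log2 FC was -1.20 (SE 0.265, adjusted P = 0.0150), just past the FC threshold. With KO library S1 or S2 left out, the adjusted P value was 0.132 or 0.0898, and the range over all alternatives was 0.00175 to 0.132. ELAVL2 was the member of the family that HEK293T cells also expressed, at 11.2, 13.2 and 11.4 CPM in WT and 14.98, 10.3 and 11.6 CPM in KO (log2 FC 0.04, SE 0.204, adjusted P = 0.975). WT NPCs had a log2 FC of -0.67 against WT HEK293T cells (adjusted P = 0.0260), which is under the FC threshold.

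ELAVL3 (chr19:11562141-11591861) had 55 and 73 counts in WT NPCs S3 and S5 and 15 and 6 in KO NPCs S1 and S2, which is 2.61 and 3.75 CPM against 0.747 and 0.275 CPM. The log2 FC was -2.65 (SE 0.556, adjusted P = 0.0125), and the call was lost without KO library S2 (adjusted P = 0.0743). HEK293T libraries held 0 or 1 ELAVL3 count each, and WT NPCs were at least 30.7-fold above the floor of the WT HEK293T libraries. ELAVL4 (chr1:50489701-50669444) had 1 count in each WT NPC library, and 23 and 7 counts in KO NPCs S1 and S2. The KO mean of 0.734 CPM was at least 4.77-fold higher than the WT floor of 0.154 CPM, a bound carried by S1 (1.15 CPM) more than by S2 (0.321 CPM). The adjusted P value was 0.0431, and the call was lost in DESeq2 (adjusted P = 0.0587), in voom (adjusted P = 0.110) and without S1 (adjusted P = 0.334), and the lowest value over the alternatives was 0.0266. HEK293T libraries held 0 or 1 ELAVL4 count each.

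**Figure D2:**
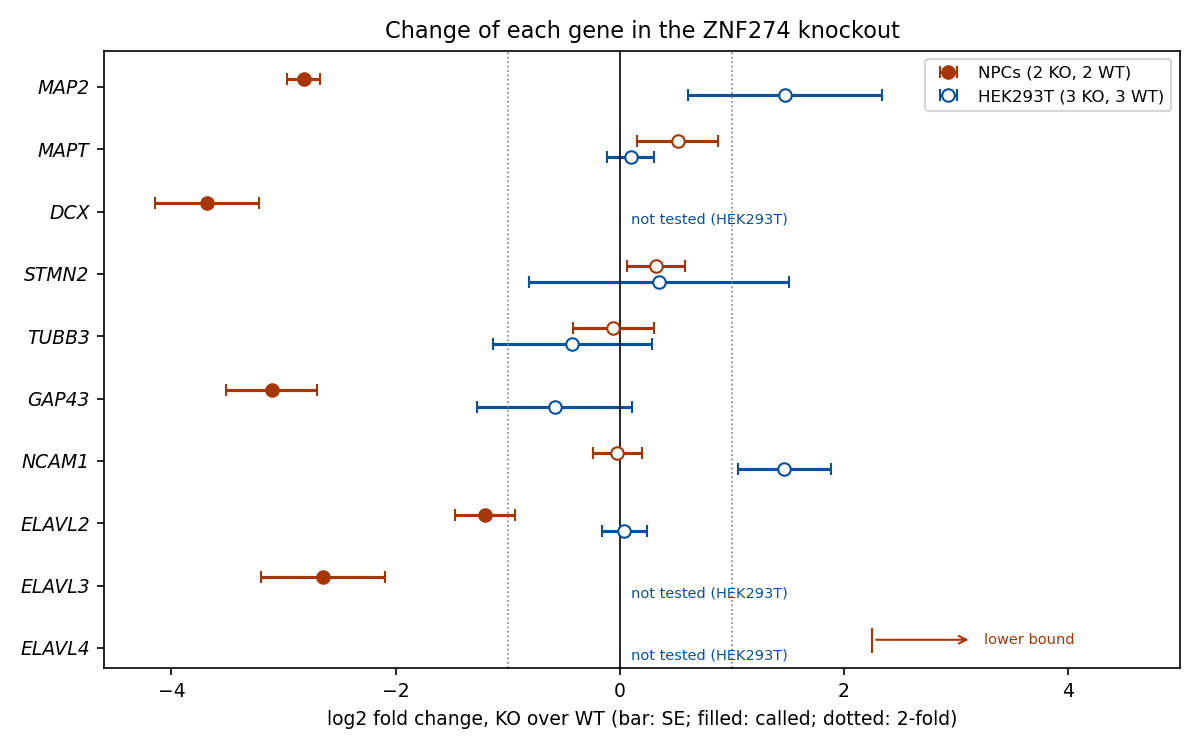
Log2 fold change of each gene in ZNF274 KO over WT (x axis) in NPCs and HEK293T cells, with bars for the SE, filled points for called genes and dotted lines at 2-fold. In NPCs the called decreases run from -1.20 (ELAVL2) to -3.68 (DCX), ELAVL4 is drawn as a lower bound because its WT libraries are at the floor, and no HEK293T point is filled.

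To ask whether ZNF274 KO acted unequally in NPCs and HEK293T cells, an interaction was fitted to all 10 libraries. Of 19255 genes tested, 6.22% were called lower in NPCs relative to HEK293T cells and 6.01% higher. The 1197 lower calls became 647 without S1 and 718 without S2. MAP2 (log2 difference -4.18, SE 0.903, adjusted P = 0.00877) and ELAVL2 (-1.23, SE 0.331, adjusted P = 0.0265) were called, both with the lower effect in NPCs. The MAP2 difference rests on HEK293T counts of 4 to 48 and was -2.39 without S18 (adjusted P = 0.0117, range over the alternatives 0.00292 to 0.0358). The ELAVL2 difference had an adjusted P value of 0.0514 to 0.120 when 1 of the libraries S15, S17, S3, S5, S1 and S2 was left out. GAP43 (-2.52, SE 0.973, adjusted P = 0.103) and NCAM1 (-1.47, SE 0.620, adjusted P = 0.134) did not pass. GAP43 passed without S16 (adjusted P = 0.0360) or S18 (adjusted P = 0.0346), and NCAM1 passed without S19 (adjusted P = 0.0357). The intervals for MAPT (-0.44 to 1.30), TUBB3 (-1.53 to 2.31) and STMN2 (-3.83 to 3.91) include 0. DCX, ELAVL3 and ELAVL4 were at or under the floor in all HEK293T libraries, so no difference of effects is given for them.

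Levels can be set side by side between genes only per length, here as CPM per kb of annotated exon. In WT NPCs, GAP43 (93.5 ± 40.6, SD, n = 2) and MAP2 (88.2 ± 5.68) led and did not differ beyond their libraries' ranges. They were followed by NCAM1 (8.31 ± 2.91) and STMN2 (8.12 ± 1.02), which also overlap, then DCX (2.09 ± 0.541), ELAVL2 (1.46 ± 0.0299), TUBB3 (0.896 ± 0.307), ELAVL3 (0.668 ± 0.168) and MAPT (0.185 ± 0.0678). TUBB3 and ELAVL3 overlap, and the exons that both share with read-through genes leave their places in the order uncertain. ELAVL4 was at the floor. With the longest transcript as the length, MAP2 (104) stood above GAP43 (93.5) and NCAM1 (18.1) above STMN2 (8.72).

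In KO NPCs the level per length of MAP2 (12.6 ± 2.15), GAP43 (11.0 ± 5.42), STMN2 (10.3 ± 3.49) and NCAM1 (8.28 ± 0.285) lay side by side, with the ranges of each neighbouring pair overlapping. That order depends on the length used, since with the longest transcript NCAM1 (18.1) stood first, above MAP2 (14.9), STMN2 (11.02) and GAP43 (11.0). By exon length, TUBB3 (0.870 ± 0.318), ELAVL2 (0.640 ± 0.0550) and MAPT (0.268 ± 0.0504) came next. DCX (0.165 ± 0.112), ELAVL3 (0.107 ± 0.0701) and ELAVL4 (0.0877 ± 0.0697) closed the order, each overlapping with its neighbour, as did MAPT with DCX. In WT HEK293T cells ELAVL2 (2.33 ± 0.213, n = 3), GAP43 (1.89 ± 1.58), MAPT (0.967 ± 0.202) and NCAM1 (0.833 ± 0.256) formed the upper end and each overlapped with the next (with the longest transcript, MAPT at 2.61 passed GAP43 at 1.89), while the other 6 genes were at most 0.0691 per kb. Of the 19088 genes tested between WT NPCs and WT HEK293T cells, 25.1% were called higher in NPCs and 15.5% lower. Of the 9 neuronal genes tested, 7 were higher and 1 lower, with a median log2 FC of 5.64, or 4.94 with DCX and ELAVL3 at their bounds, beside 0.13 over all genes.

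**Figure D3:**
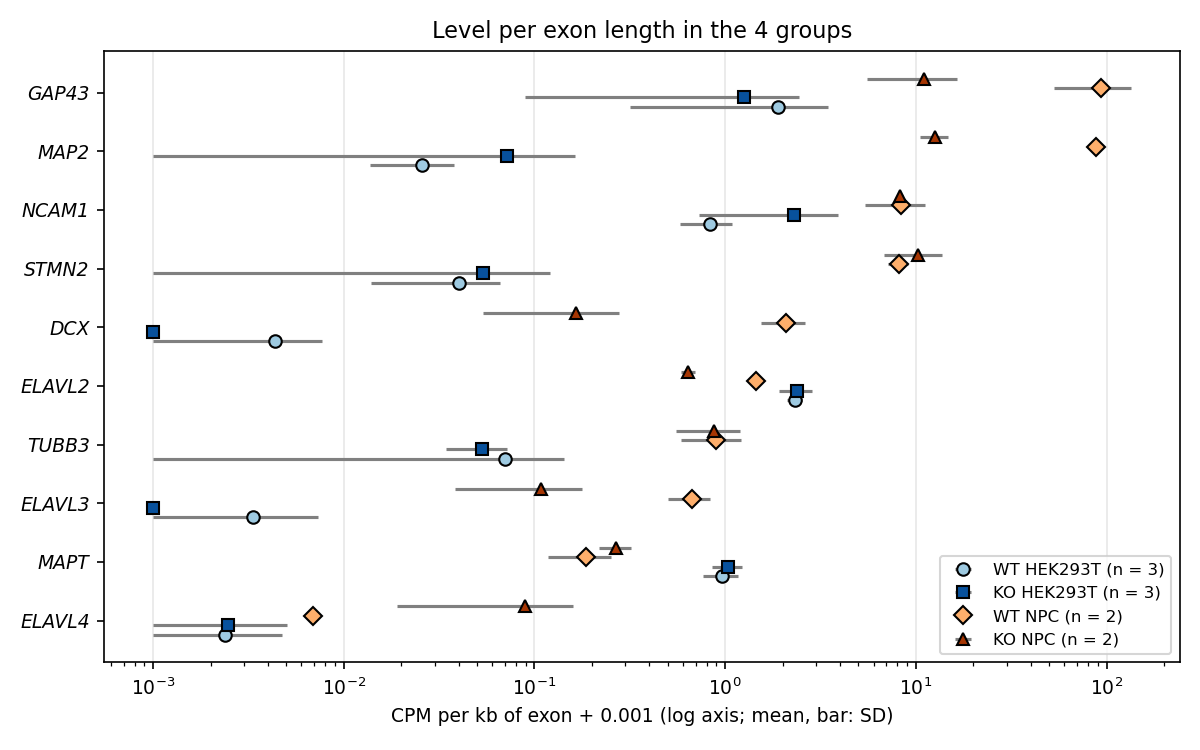
Mean CPM per kb of annotated exon plus an offset of 0.001 (x axis, logarithmic) of each gene in the 4 groups, with bars for the SD that end at 0 where the SD exceeds the mean. WT NPCs have the highest mean in 6 genes, their bars overlap with those of KO NPCs in NCAM1, STMN2, TUBB3 and MAPT, and MAPT and ELAVL2 are highest in the HEK293T groups.

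Widely expressed relatives of these genes were measured beside them. ELAVL1 was at 198 and 194 CPM in WT NPCs and 142 and 146 CPM in KO NPCs (log2 FC -0.46, SE 0.0986, adjusted P = 0.0136), a difference under the FC threshold. Per length, ELAVL1 (28.2 ± 0.370 in WT NPCs) stood above each neuronal ELAVL gene. TUBB, the beta-tubulin of most cells, had a log2 FC of -0.01 (adjusted P = 0.934) and STMN1 of -0.01 (adjusted P = 0.982). MAP4, the widely expressed relative of MAP2 and MAPT, had a log2 FC of 0.56 (adjusted P = 0.0104), again under the FC threshold. NCAM2, a neural relative of NCAM1, was higher in KO NPCs, at 2.76 and 3.13 CPM in WT and 7.03 and 9.36 CPM in KO (log2 FC 1.46, SE 0.288, adjusted P = 0.00972). Of the 12 widely expressed relatives tested, 1 was called lower in KO NPCs (MAP7, log2 FC -3.14, adjusted P = 0.00253) and 0 higher, while 7 had an unadjusted P value under 0.05. The beta-tubulin TUBB6 had 233 and 212 CPM in WT NPCs and 400.1 and 436 CPM in KO NPCs (log2 FC 0.89, adjusted P = 0.00127), under the FC threshold. In the interaction MAP7 was called lower (log2 difference -2.85, adjusted P = 0.000492) and TUBB6 higher (1.10, adjusted P = 0.00185), the latter not with library size in place of TMM.

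Of 24 other genes of the neuronal cytoskeleton tested in NPCs, 14 were called lower in KO and 0 higher (2 higher without S3 and 1 without S5), with a median log2 FC of -1.37. MAP6, which stabilizes microtubules against cold, had 138 and 199.5 CPM in WT and 3.94 and 3.40 CPM in KO (log2 FC -5.54, SE 0.233, adjusted P = 2.83e-05). The kinesin heavy chain KIF5A (log2 FC -3.53, adjusted P = 0.000879), the stathmin STMN4 (-3.09, adjusted P = 0.0126) and the doublecortin-like kinase DCLK2 (-3.09, adjusted P = 0.000254) were also lower. The neurofilament gene NEFM fell by 1.75 on the log2 scale (adjusted P = 0.00390), from 223.5 and 405 CPM in WT to 106 and 82.4 CPM in KO. MAP1A (log2 FC -0.01), MAP1B (-0.28) and TUBA1A (-0.21) did not pass the test, although MAP1B and TUBA1A had 507 and 2736 CPM on average in WT NPCs. The log2 FC was below 0 in 18 of the 24. It was above 0 but under the FC threshold in DCLK1 (log2 FC 0.72, adjusted P = 0.0417) and in NEFH, also a neurofilament gene (0.88, adjusted P = 0.0300). TPPP (0.71, adjusted P = 0.122), TUBB4A (0.88, adjusted P = 0.0912) and KIF21B (0.39, adjusted P = 0.154) passed neither threshold. In HEK293T cells 0 of 23 were called, with 3 at an unadjusted P value below 0.05. DESeq2 called 1 higher there and voom 0. By the interaction, 11 of 24 had the lower effect in NPCs and 1 the higher (TUBB4A). The 11 became 7 without S1, and the 1 was lost with library size alone, in voom and without S15, S16, S17, S19, S5, S1 or S2.

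Growth cone and adhesion genes were called in both directions. Of 12 tested in NPCs, 4 were lower (NRCAM, CHL1, LSAMP and OPCML) and 3 higher (NEGR1, L1CAM and NCAM2), with a median log2 FC of 0.44, which was -0.145 without S1 and 0.105 in voom. L1CAM, a cell adhesion molecule of growing axons, rose from 82.8 and 72.5 CPM in WT to 385 and 349 CPM in KO (log2 FC 2.23, adjusted P = 6.72e-05). NRCAM, of the same family, had 24.2 and 73.8 CPM in WT and 2.24 and 2.11 CPM in KO (log2 FC -4.50, adjusted P = 0.00133). BASP1, a growth cone protein often studied with GAP43, had a log2 FC of 0.77 (adjusted P = 0.00315), opposite in sign to GAP43 and under the FC threshold. The count of 4 lower became 2 without S3, S1 or S2. In HEK293T cells 0 of 9 were called by edgeR, DESeq2 or voom, and 1 had an unadjusted P value under 0.05.

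Of 16 other RNA-binding proteins of neural cells, 8 were lower in KO NPCs and 0 higher, with a median log2 FC of -1.22, or -1.18 with RBFOX3 at its bound. The splicing regulator NOVA2 had 77.3 and 48.7 CPM in WT and 6.23 and 4.68 CPM in KO (log2 FC -3.55, adjusted P = 0.000245). KHDRBS2 (117 and 88 counts in WT and 0 and 8 in KO, log2 FC -4.71, adjusted P = 0.00569) and MSI1, an RNA-binding protein of neural stem cells (-2.57, adjusted P = 0.00109), were also lower. RBFOX2 (log2 FC 0.61, adjusted P = 0.00872) and QKI (-0.30, adjusted P = 0.246) were not called. The count of 8 was 5 without KO library S1 or S2. In HEK293T cells 0 of 13 were called by edgeR, DESeq2 or voom, and 0 had an unadjusted P value under 0.05. By the interaction, 6 of 16 had the lower effect in NPCs, and this count became 4 without S17 or S1, 3 without S5 and 2 without S2.

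REST, a repressor of neuronal genes outside the nervous system, had 24.6 and 34.1 CPM in WT NPCs and 41.7 and 41.1 CPM in KO NPCs (log2 FC 0.48, SE 0.181, adjusted P = 0.0908). Among REST and 7 of its corepressors, 1 was called in NPCs, RCOR2, which was lower (log2 FC -2.77, SE 0.213, adjusted P = 0.000238), from 39.8 and 36.99 CPM to 6.63 and 4.73 CPM. Over all genes tested, 8.36% were called lower. Of these 8 genes, 6 had an unadjusted P value under 0.05, and 2 were called lower with library size in place of TMM. RCOR2 was also called in the interaction (log2 difference -2.91, adjusted P = 0.000636).

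**Figure D4:**
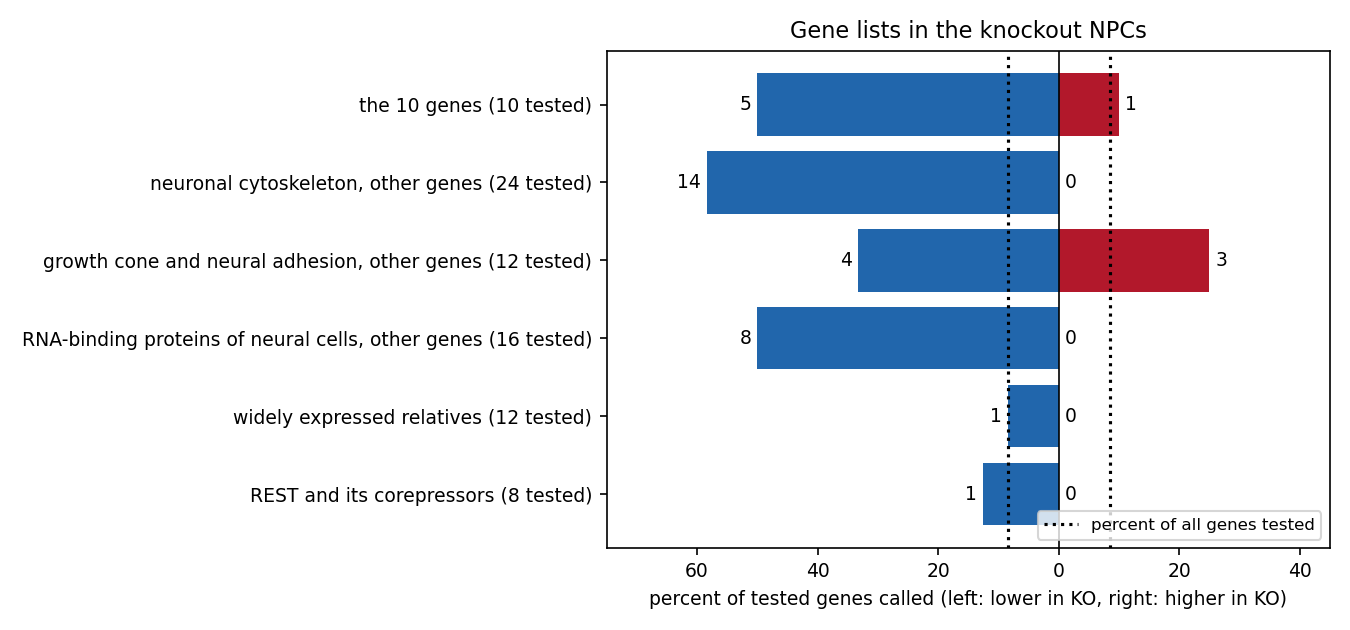
Percent of the tested genes of each list that were called lower (left) or higher (right) in KO NPCs (x axis), with the number called beside each bar and dotted lines at the percentages over all genes tested. The 10 genes, the other cytoskeleton genes (14 of 24) and the other RNA-binding proteins (8 of 16) extend to the left, whereas the widely expressed relatives (1 of 12) stand at the line.

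Some markers of cell types were called between genotypes in the NPC libraries, where 8.36% of all genes tested were called lower and 8.45% higher. The part of the markers in the changes of the neuronal genes was not tested. In bulk RNA, fewer cells of a type and less RNA per cell cannot be told apart. Of 7 neural progenitor markers, 5 were lower in KO (SOX1, FABP7, SOX2, SLC1A3 and PAX6) and 0 higher, while their summed level was 2837 to 3851 CPM in WT and 3237 to 3275 CPM in KO, most of it NES. Of 8 synaptic markers 1 was lower (SYT1), a count close to the share over all genes. The sum was 46.9 to 50.6 CPM in WT and 24.7 to 26.9 CPM in KO, most of it SYT1, with GAD1 and RBFOX3 at or below the floor in KO. SYN1 had a log2 FC of -0.05 (adjusted P = 0.918) and SLC17A7 of 1.88 (adjusted P = 0.0513). In voom, and likewise with library size in place of TMM, 2 synaptic markers were called lower and 0 higher. With filterByExpr, and likewise with all 10 libraries in 1 fit, 1 was called lower and 1 higher. Without S1, 0 synaptic markers were called. Of 4 glial markers 0 were called by edgeR, DESeq2 or voom and 0 had an unadjusted P value under 0.05, with sums of 15.2 to 17.8 CPM in WT and 8.86 to 19.2 CPM in KO and AQP4 at or below the floor in KO. Without S3, 1 glial marker of 3 tested was called lower.

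Several markers of other lineages were also called, beside 8.45% of all genes tested called higher and 8.36% lower. Of 9 mesenchymal markers tested, 4 were higher (POSTN, COL3A1, TWIST1 and COL1A1). TWIST2, with 0 counts in each NPC library, was not tested, and DCN, listed in the NPC table alone, was tested but is not in the sum of the other 9 genes, which was 1300.0 to 2161 CPM in WT and 5226 to 5952 CPM in KO. Of 6 epithelial markers 3 were higher, all keratins (KRT7, KRT18 and KRT8), with sums of 342.5 to 599 and 1329 to 1503 CPM, most of it KRT8 and KRT18. EPCAM was not called and went the other way, with 3.85 and 2.67 CPM in WT and 2.29 and 2.16 CPM in KO. CDH1 was at or below the floor in WT and had 1 and 5 counts in KO. Of 6 neural crest markers 3 were higher (SOX10, NGFR and SOX9), with sums over 5 genes of 24.9 to 39.3 and 95.6 to 136 CPM and FOXD3 and SOX10 at or below the floor in WT. Without KO library S1, and likewise in voom, the higher calls were 2 of the mesenchymal and 1 of the neural crest markers. POSTN had 367 counts in S1 and 33 in S2, and SOX10 had 146 and 31. Of 3 muscle markers DES and TNNT2 were higher and ACTC1 lower, with sums of 17.5 to 23.0 and 176 to 199 CPM. The pluripotency markers summed to 139 to 161 CPM in WT and 61.2 to 65.0 CPM in KO, and of 3 tested LIN28A was lower, with NANOG at or below the floor in KO. In HEK293T cells edgeR, DESeq2 and voom called 0 markers of the 8 lists, and by edgeR 4 markers had an unadjusted P value under 0.05.

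**Figure D5:**
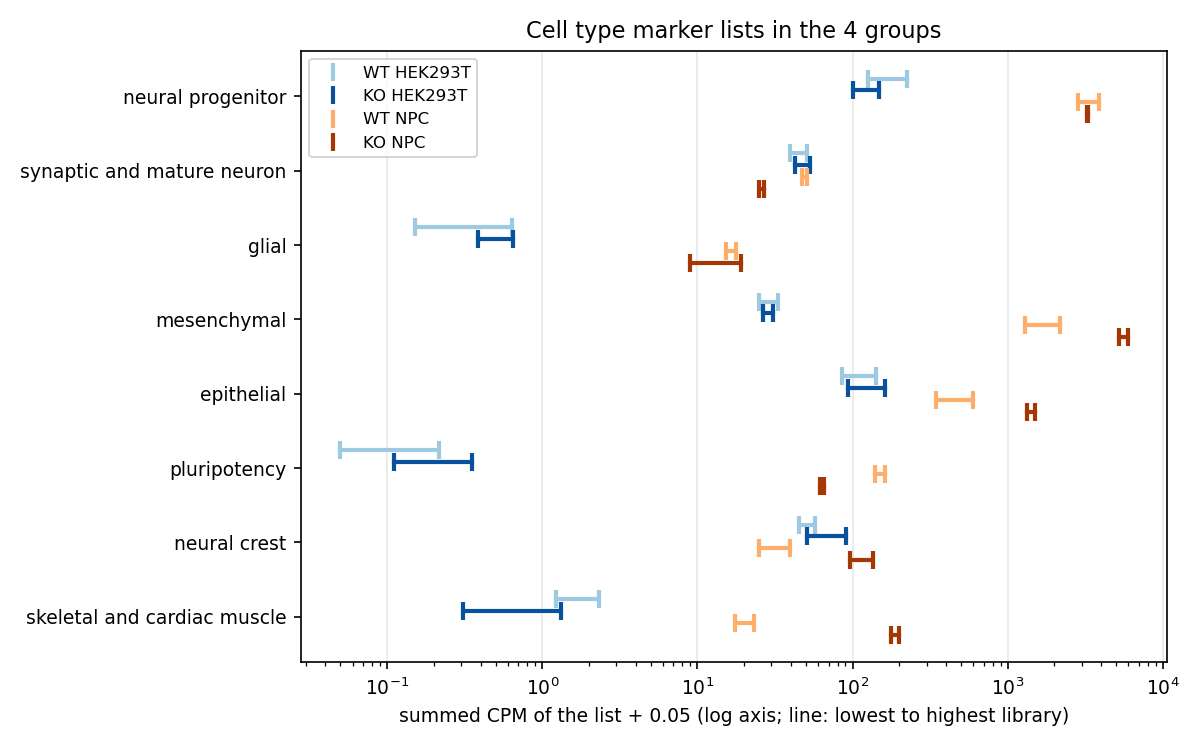
Summed CPM of 8 lists of cell type markers plus an offset of 0.05 (x axis, logarithmic), drawn as a line from the lowest to the highest library of each group. The mesenchymal, epithelial, neural crest and muscle sums of KO NPCs lie above those of WT NPCs, the synaptic and pluripotency sums lie below, and the HEK293T groups overlap with each other in all 8 lists.

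The genes whose pattern over the 10 libraries was most like each neuronal gene were found by the distance between log2(CPM + 0.5) values centred on each gene's mean, among 12464 protein-coding genes. NEFM was nearest to MAP2 (distance 2.29, where the spread of MAP2 itself was 13.9), followed by COL2A1 (2.61) and CRABP1 (2.65). FREM1 (0.834), CP (0.848) and ACTC1 (0.922) were nearest to DCX, MMP2 (2.14), NDST4 (2.16) and ZNF521 (2.17) to GAP43, and FZD3 (0.533) to ELAVL3. APLP2 (0.475) was nearest to ELAVL2, TBC1D8B (0.624) to ELAVL4, NFATC1 (0.389) to MAPT, TRIM5 (0.924) to TUBB3, TMEM200A (0.740) to STMN2 and NRBP2 (1.38) to NCAM1.

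Genes within 500 kb of 3 of the genes that were lower in KO NPCs were also looked up. Near GAP43, LSAMP was lower among 2 protein-coding genes tested, near DCX, CHRDL1 was lower among 5, and near MAP2, 0 of 4 genes were called. In HEK293T cells edgeR called 0 of the neighbours of these 3 genes.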

How the data were processed

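RNA-seq libraries from HEK293T cells (3 WT, 3 KO) and NPCs (2 WT, 2 KO) were analysed. The authors aligned reads with HISAT2 to hg19, ran featureCounts on those with a unique position and deposited 1 table of counts per cell type without normalization. Versions, the annotation and the strand setting of the counting are not given in the sources used here. Identifiers were paired with symbols, exons and hg19 coordinates through the GENCODE annotation of GRCh37 (23273 of 24050).

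Counts were normalized by TMM and tested in R 4.3.3 with edgeR 4.0.16 (quasi-likelihood, Benjamini-Hochberg over all genes tested), over genes with a total of at least 1 count per library. Calls required a FC above 2 and an adjusted P value below 0.05. SEs and 95% intervals were calculated back from the test statistic. Alternatives were DESeq2 1.42.0, voom in limma 3.58.1, other size factors and filters, all 10 libraries in 1 fit, and each library left out. Leaving out 1 NPC library leaves a lone sample, assumed to vary like the other groups. Levels are CPM. The floor was 3 counts per library (0.0917 to 0.154 CPM) and covers counting error only. The tests were tried on simulated data. The members and gene lists were chosen with earlier results of these data known. From each list other than the marker lists, up to 4 called genes could be named per comparison and direction. These were the ones with the largest FC whose mean reached 1 CPM, besides the 10 genes, their widely expressed relatives and the 3 most similar genes of each. From the marker lists, each gene called between KO and WT NPCs with all libraries kept was named. Genes named without a call, and neighbours, were chosen after their values were seen. CELF6, MARCKS, MYOG and NEFL were not analysed here, nor were transposable elements.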

Additional observations from a re-analysis of the deposited data

Results flagged for a closer look

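MAP2 and ELAVL2 passed the test of a difference in KO effect between NPCs and HEK293T cells, and the ELAVL2 call rests on most of the libraries. For MAP2 the difference was -4.18 on the log2 scale (adjusted P = 0.00877) and -2.39 without S18, between a decrease in NPCs and a HEK293T value that rests on 4 to 48 counts per library. For ELAVL2 it was -1.23 (adjusted P = 0.0265), from a gene with 311 to 383 counts in each HEK293T library and 62 to 160 in each NPC library. The ELAVL2 difference did not pass when any 1 of S15, S17, S3, S5, S1 and S2 was left out (adjusted P = 0.0514 to 0.120).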

How the results depend on the processing

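No paired analysis was possible because the labels give no replicate number that WT and KO libraries share. The count of the 10 genes called higher in KO NPCs was 0 with filterByExpr, which dropped ELAVL4, and 0 in DESeq2 and in voom. With 1 library left out, 3 to 5 were lower and 0 to 1 higher in KO NPCs, and 1 to 3 were called lower in NPCs relative to HEK293T cells. Under these alternatives MAP2, DCX and GAP43 were called lower in KO NPCs in each fit (log2 FC -3.01 to -2.66, -4.62 to -3.11 and -3.73 to -2.58), and the counts between WT NPCs and WT HEK293T cells and in HEK293T cells stayed the same. With library size in place of TMM, the median log2 difference of the KO effects over all genes moved from -0.025 to -0.24 and the calls from 1197 lower and 1157 higher to 1702 lower and 843 higher; MAP2 (-4.41) and ELAVL2 (-1.45) were called under both. In KO against WT NPCs that median moved from -0.022 to -0.13. Depth limits DCX, ELAVL3 and ELAVL4 in HEK293T cells and ELAVL4 in WT NPCs, all at the floor.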
